A study of Mus musculus with 6 samples.

Results

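Camta1 is a mouse gene of 802 kb on chromosome 4 (gene 100072, GRCm38 chr4:151059523-151861768, minus strand). In a list of 84111 regions captured by a methyl-CpG-binding protein in chondrocytes, 92 had their midpoint inside its body. The gene was chosen by its number of peaks in this list, so the count, the density and their ranks are given as a description. No difference between sets of peaks was tested, and intervals are given for some. The study profiled DNA methylation by MBD-seq in primary chondrocytes cultured from knee articular cartilage of mice at postnatal day 3 to 5. The labels name 3 control cultures, of genotype Dnmt1 flox, and 3 conditional knockout (cKO) cultures, of genotype Prx1-Cre;Dnmt1 flox/flox. Dnmt1 copies CpG methylation to newly made DNA strands. Prx1-Cre acts in limb bud mesenchyme, from which cartilage cells and other limb cell types arise, and the labels do not say whether the controls carry 1 or 2 floxed alleles. The deposited values are 1 peak list, titled as Dnmt1-mediated DNA methylation regions, called on 3 merged datasets whose names give no group. The set that the caller compared them with is not named. Whether a fold stands for methylation or for a difference between groups therefore cannot be told. No value below belongs to a single culture, no comparison of control with cKO could be made and the depth of each culture is unknown.

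CAMTA1, the calmodulin-binding transcription activator, is a transcription factor with a CG-1 DNA-binding domain, ankyrin repeats and IQ motifs that bind calmodulin, the cell's calcium sensor. It is best known from the nervous system, where its loss in mice gives ataxia and loss of Purkinje cells. In mammalian genomes, CpGs inside gene bodies are mostly methylated, whereas CpG-rich promoters mostly are not. MBD capture recovers DNA with several methylated CpGs close together. A stretch without a peak may therefore be unmethylated, poor in CpGs or below the threshold of the list, whose lowest −log10 q was 20.004. Since the comparison set of the caller is not named, such a stretch may also be methylated alike in that set.

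The promoter of Camta1 is shown first because no peak was found near it. RefSeq (GRCm38.p6) gives 1 start site for the gene, at its upper coordinate, and the window from 250 bases before to 50 bases after it is chr4:151861719-151862018. Below it stands a promoter window of Gm13090 (chr4:151089320-151089619, plus strand), a short protein-coding entry nested in Camta1. This window lies wholly inside the gene entry, which begins upstream of it at chr4:151088981, so it does not show the 5′ end of that entry. Of the 7 promoter windows of genes nested in or overlapping Camta1, the Gm13090 window was the only one overlapped by a peak. Both are written 5′ to 3′ on the strand of their own gene, with each CpG in capitals.
Camta1: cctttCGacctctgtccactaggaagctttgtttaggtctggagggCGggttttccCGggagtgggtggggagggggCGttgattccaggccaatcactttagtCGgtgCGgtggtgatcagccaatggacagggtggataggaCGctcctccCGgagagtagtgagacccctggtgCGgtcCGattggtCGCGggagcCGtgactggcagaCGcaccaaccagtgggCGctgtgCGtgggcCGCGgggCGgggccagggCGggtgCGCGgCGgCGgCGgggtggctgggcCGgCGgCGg
Gm13090: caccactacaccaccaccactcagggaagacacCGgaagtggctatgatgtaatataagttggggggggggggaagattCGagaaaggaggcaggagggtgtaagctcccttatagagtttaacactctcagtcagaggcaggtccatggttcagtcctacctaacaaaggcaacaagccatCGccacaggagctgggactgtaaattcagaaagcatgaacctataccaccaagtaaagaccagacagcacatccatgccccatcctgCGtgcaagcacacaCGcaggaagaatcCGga

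The Camta1 window holds 28 CpGs, more than 84.9% of the 24390 promoter windows on covered sequence, and 68.3% of its bases are G or C. Its nearest peak edge lay 9286 bp away. The motif searched was CG, which reads the same on both strands. At least 1 CG was present in 95.1% of all windows, and the median was 7. A peak overlapped 4.26% of all windows by at least 1 bp, and 0.995% of the 6736 windows with at least 20 CpGs. The Gm13090 window has 6 CpGs, and the peak over its 3′ part (chr4:151089522-151090011) had a fold enrichment of 23.3. The start site of the lncRNA 9230110K08Rik, which overlaps that of Camta1 on the other strand, had 54 CpGs in its window and no peak within 9511 bp. A CpG-rich promoter window without a peak, as at Camta1, was thus the usual case in this list.

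The 92 peaks gave Camta1 11.5 peaks per 100 kb (exact Poisson 95% interval 9.24 to 14.1; this and all intervals below cover counting error only). Among 146 protein-coding genes of 500 kb to 1.2 Mb on covered sequence it stood in place 4 both by count and by density. The 3 entries above it were Gm37013 (108 peaks, 12.1 per 100 kb), Gm38666 (104 peaks, 11.9 per 100 kb) and Gm38667 (102 peaks, 11.8 per 100 kb), which overlap one another at the protocadherin genes of chromosome 18. They were also its 3 nearest genes by the difference in log2 density. After Camta1 came Atrnl1 (56 peaks, 10.7 per 100 kb) and Grip1 (59 peaks, 9.31 per 100 kb), which encode an attractin-like membrane protein and a scaffold protein of glutamate receptors. These last names were picked after their values were seen. The median of the 146 genes was 1.79 peaks per 100 kb, with quartiles at 1.199 and 2.90. At the bottom of the order stood Car10 with 2 peaks (0.396 per 100 kb), Rabgap1l with 3 (0.522 per 100 kb) and Ptprk with 3 (0.574 per 100 kb).

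Genes of nearly the same length had far fewer peaks. Adgrl3, an adhesion receptor of 809 kb, had 26 peaks, and Ptprn2, a receptor-type phosphatase family member of 792 kb, had 20. Lrrtm4, a synaptic adhesion protein gene of 791 kb, and Cacna2d3, a calcium channel subunit gene of 818 kb, had 8 each. Pooled over 142 other long genes that do not overlap one another, density was 2.29 peaks per 100 kb, and Camta1 had 5.02 times that (95% interval 4.03 to 6.18). Camta1 was chosen by its count, so this ratio describes the choice, and the interval allows neither for that nor for the dependence of neighbouring peaks. Length itself had little relation to density across the 146 genes (Spearman rho = -0.02, a description). Against all 15762 protein-coding genes on covered sequence, 3 had more peaks than Camta1, but 28.1% had a higher density.

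**Figure D1:**
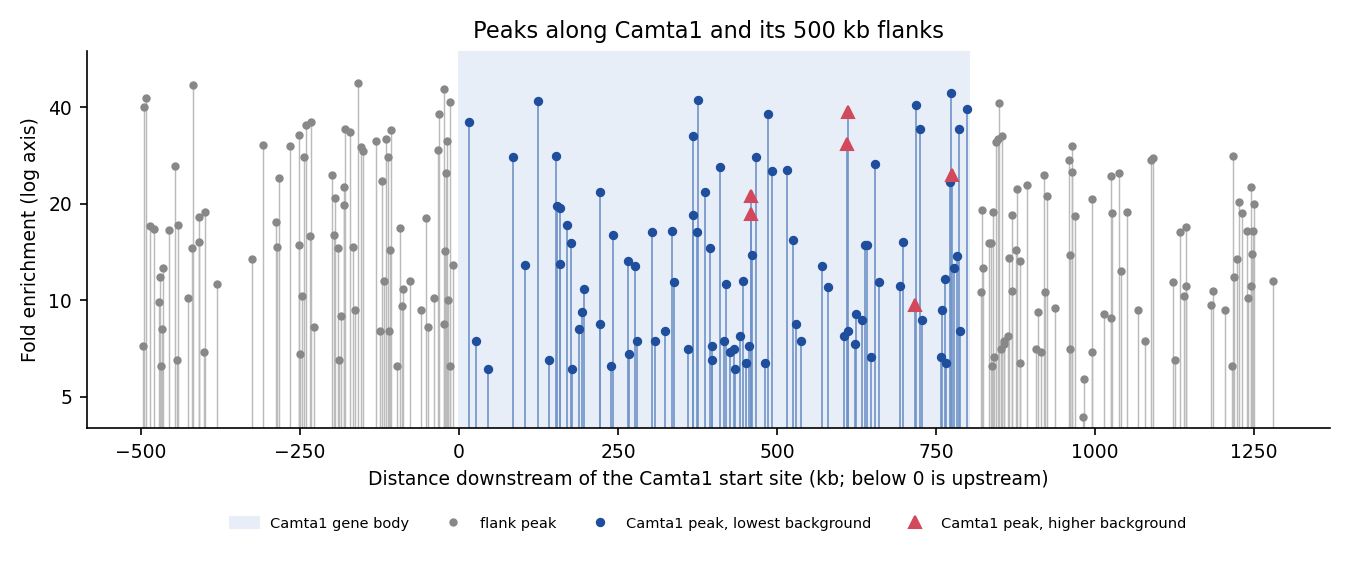
Each stem is a peak, placed by the distance of its midpoint from the Camta1 start site (kb, horizontal) at its fold enrichment (log axis, vertical), for the 92 peaks of the gene and the 156 of the 500 kb flanks. Peaks run through the whole gene and on into both flanks, with 3 in the 80.2 kb after the start site.

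The neighbourhood was denser than the gene. The 500 kb upstream of the start site held 81 peaks (16.2 per 100 kb, Poisson interval 12.9 to 20.1), and the 500 kb beyond the 3′ end held 75 (15 per 100 kb, 11.8 to 18.8). The density in Camta1 was 0.735 times that of both flanks together (95% interval 0.562 to 0.957), 0.708 times the upstream flank (0.519 to 0.966) and 0.765 times the downstream flank (0.557 to 1.05). A lower density in the body than in the flanks was common among long genes, found in 84.2% of the 146. The median ratio of body to flanks was 0.542, and Camta1 stood in place 44 from the top. Its flanks, at 15.6 peaks per 100 kb, were the densest of all 146 genes, the median being 3.40. The next were those of Hpse2, a heparanase family gene with 11.5 per 100 kb in its flanks and 1.99 in its body, and Ptprm, a receptor phosphatase gene with 11.3 and 4.51. Across the 146 genes, body density and flank density had a Pearson r of 0.62 and a Spearman rho of 0.54, as a description over genes of 1 list. Both values include Camta1, which was chosen by its count, and the overlapping entries Gm37013, Gm38666 and Gm38667. On chromosome 4, the 1 Mb centred on Camta1 held 136 peaks, more than 96.5% of 1524 windows of that size. The windows were taken in steps of 100 kb and had a median of 34 peaks. This 1 Mb contains the whole gene with its 92 peaks. The place of the window therefore partly restates the count by which Camta1 was chosen.

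**Figure D2:**
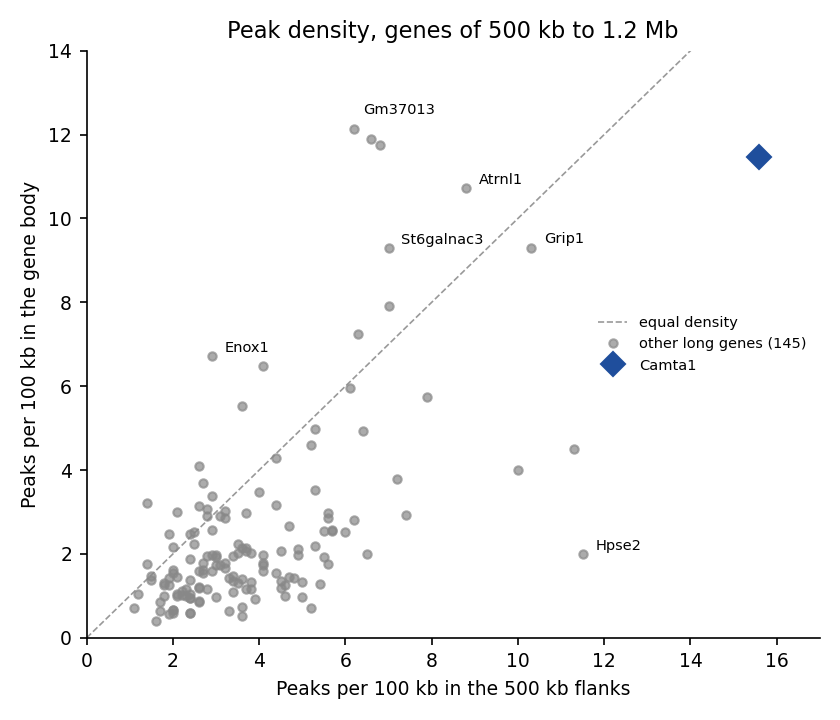
Each point is a protein-coding gene of 500 kb to 1.2 Mb, with peaks per 100 kb in its 500 kb flanks (horizontal) and in its body (vertical); the dashed line marks equal density. Camta1 lies at 15.6 and 11.5, to the right of all other genes and below the line.

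More of the flank peaks lay inside other protein-coding genes than outside them. Such genes took up 72.0% of the upstream flank and 40.2% of the downstream flank. Upstream, 65 of 81 peaks lay in protein-coding bodies, at 18.1 peaks per 100 kb of body, and 16 lay outside them, at 11.4 per 100 kb. Downstream the densities were 20.4 (41 peaks) and 11.4 (34 peaks) per 100 kb. The density inside Camta1 (11.5) was thus close to that between the neighbouring genes and below the pooled density within them. Single neighbours varied to either side of Camta1. Rere and Chd5 cross the outer limits of the flanks, and only their parts inside entered the pooled values. Over their whole length they had 18 peaks each, at 5.29 and 34.9 per 100 kb. Acot7 had 6.40 per 100 kb. Of the 17 protein-coding genes wholly in the upstream flank, 15 had a peak, and of the 8 downstream, 6 had one, where 64.7% of all protein-coding genes on covered sequence did. Nol9, a kinase of ribosomal RNA processing, had 9 peaks in 22.2 kb, Dnajc11, a mitochondrial heat shock protein family member, had 11 in 48.2 kb and Plekhg5, a guanine nucleotide exchange factor, had 9 in 43.0 kb. Klhl21, Zbtb48, Tas1r1, Thap3, Gpr153, Icmt and Rnf207 had 2 each, Phf13 and Hes3 had 1 each, Espn had 4, Rpl22 had 5 and Acot7 had 6, while Tnfrsf25 and Hes2 had none. On the downstream side Per3, a gene of the circadian clock, had 17 peaks in 47.7 kb. Its neighbours Slc45a1, Park7 (the stress-response protein DJ-1), Tnfrsf9, Errfi1 (an inhibitor of the epidermal growth factor receptor) and Uts2 had 6, 5, 4, 2 and 2. Vamp3, a vesicle fusion protein gene beside the 3′ end of Camta1, and the overlapping entry Gm38529 had none.

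A stretch without peaks spanned the start site of Camta1, and another at its 3′ end lay mostly outside the gene. Inside the gene, 11 gaps between successive peaks were longer than 20 kb. The peak nearest the start site inside the gene was chr4:151845183-151845921, with its midpoint 16.2 kb from the start site, a fold of 36.1 and a pileup of 265 reads. The first peak outside, 9.70 kb upstream, was chr4:151871304-151871638, with a fold of 12.9 and a pileup of 94 reads. At the 3′ end the last peak inside, chr4:151062067-151062616, was 2.82 kb from the gene end with a fold of 39.6, and the first outside, chr4:151041202-151041569, was 18.1 kb away with a fold of 10.6. Placing peaks by summit or by any overlap left the same number in the gene, since no peak crossed either end.

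Along the gene, peaks were counted in 10 equal segments of 80.2 kb from the start site. The segments held 3, 8, 9, 7, 12, 15, 6, 11, 7 and 14 peaks in that order. The segment at the start site was the emptiest (Poisson interval 0.619 to 8.77) and the sixth the fullest (8.40 to 24.7). These intervals overlap slightly, and differences between single segments were not tested. The first segment held 3.26% of Camta1 peaks, against 9.27% in 115 other long genes for which RefSeq gives a strand. The last segment held 15.2% in Camta1 and 18.0% in those genes. The 5 segments toward the 3′ end had 53 peaks, 57.6% (95% Wilson interval 47.4% to 67.2%), close to the 56.4% of the other long genes. Fold had no clear trend with distance from the start site (Spearman rho = 0.08 over 92 peaks). The median fold was 13.0 in the 5 segments toward the start site (interval of the median 8.14 to 16.4) and 11.5 in the other 5 (8.68 to 15.2). Peaks with a fold of at least 20 numbered 8 and 16, of which 6 lay in the last segment.

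**Figure D3:**
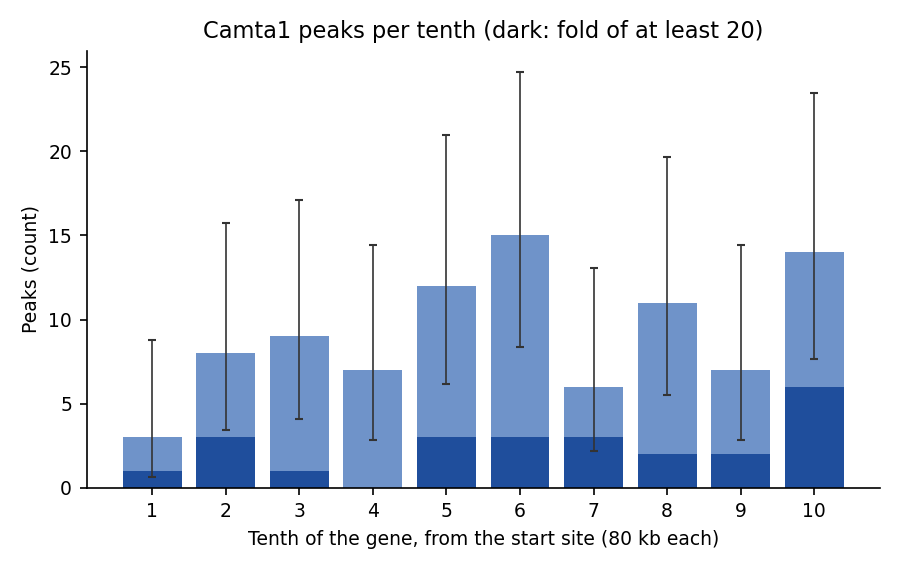
Bars give the number of Camta1 peaks (vertical) in each of 10 equal segments of the gene from the start site (horizontal); the dark part counts peaks with a fold of at least 20, and error bars are exact Poisson 95% intervals of the whole bar. The first segment holds 3 peaks and the sixth 15.

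The median spacing of peaks lay between that of the flanks and the pooled value of the other long genes. The 91 distances between successive midpoints in Camta1 had a median of 5527 bp (95% interval 4433 to 7377), with quartiles at 2716 and 10760 bp, and ran from 687 to 39642 bp. In the flanks the median was 3212 bp (2686 to 4055, 154 gaps), and in 142 other long genes it was 16775 bp (15098 to 18688, 2223 gaps). Of the 39 long genes with at least 20 peaks, Camta1 included, 7 had a shorter median gap than Camta1 and 31 a longer one. Among the 7 were Gm37013, Gm38666 and Gm38667 (4417 bp each), overlapping entries with largely the same peaks. Each of these entries counts as a gene of its own in all ranks over the 39 genes and over the 146. Gaps of at most 3 kb made up 26.4% in Camta1 (24 of 91), 46.8% in the flanks, 21.0% in the other long genes and 28.4% in the whole list. The coefficient of variation of the gaps was 0.988 in Camta1. By this measure 31 of the same 39 genes had a more uneven spacing, and the median over the 39 was 1.15. In the flanks it was 1.25.

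The longest gap lay near the start site. It ran from a peak of 69 bp with a fold of 6.10, 45.8 kb after the start site, to one of 503 bp with a fold of 28.1 at 85.4 kb. Gaps over 20 kb numbered 11 and took up 38.3% of the distance between the first and the last peak, against 26.2% in the flanks and 91.2% in the other long genes. The next 3 in length, of 33.5, 33.2 and 30.2 kb, were centred in the part of the gene toward the 3′ end. Against other long genes, short gaps and few long ones restate the number of peaks by which Camta1 was chosen.

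**Figure D4:**
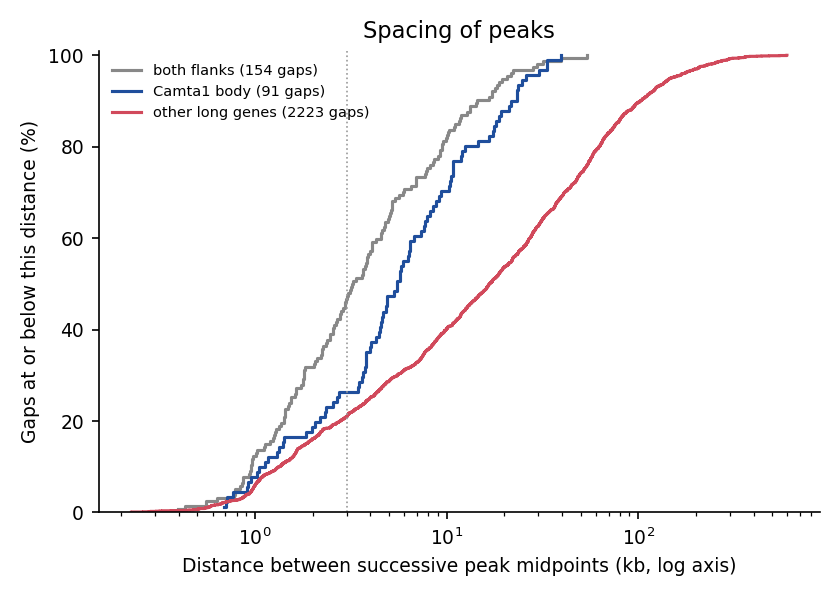
Curves give the percentage of gaps (vertical) at or below a distance between successive peak midpoints (kb, log axis, horizontal) for the flanks, Camta1 and other long genes; the dotted line marks 3 kb. The Camta1 curve, with a median of 5527 bp, lies between those of the flanks (3212 bp) and of the other long genes (16775 bp).

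Clusters were defined as 3 or more peaks with successive midpoints at most 3 kb apart. Camta1 had 4, with 14 peaks in all, 15.2% of its peaks. The share was 15.2% in the pooled other long genes and 43.6% in the flanks, which held 18 clusters. Of the 39 long genes with at least 20 peaks, 24 had a higher share than Camta1 and 14 a lower one. The median share of these 39 genes was 21.7%. The cluster nearest the 3′ end (chr4:151083611-151090011, 4 peaks in 6.40 kb) held the peak with the highest fold of the gene, 44.4. Beside it stood peaks of 12.6, 24.6 and 23.3, the last of which overlaps the 3′ part of the Gm13090 window shown above. The gene body of Gm13090 begins upstream of that window, at chr4:151088981, under the peak with a fold of 44.4. The cluster of 3 peaks at chr4:151248999-151251929 had folds of 38.7, 8.004 and 30.7. That of 4 peaks at chr4:151400508-151405553 had folds of 13.8, 21.2, 18.6 and 7.19, and that of 3 at chr4:151463477-151467545 had 7.19, 6.51 and 14.5.

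Neighbouring peaks did not resemble each other in fold. Over the 91 successive pairs Spearman's rho was 0.00, as a description. In 15 pairs with midpoints at most 1500 bp apart, the larger fold was at the median 1.83 times the smaller, and in the other pairs 1.71 times. The difference was at least 2 times in 5 of the 15 close pairs. The steepest was between chr4:151248999-151249695 (38.7) and chr4:151250310-151250482 (8.004), which were 614 bp apart from edge to edge.

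Single peaks of Camta1 spanned most of the usual range of fold. Their fold ran from 6.10 to 44.4 with a median of 12.7 (95% interval 9.69 to 14.9) and quartiles at 7.66 and 21.3. The median was 14.7 in the flanks (12.9 to 16.8), 11.7 in the other long genes (11.1 to 12.1) and 13.2 in the whole list. Of the 92 peaks, 24 had a fold of at least 20 (26.1%, Wilson interval 18.2% to 35.9%). The share was 28.9% in the whole list, 31.4% in the flanks and 22.2% in the other long genes. A fold under 8 was found in 25 peaks (27.2%, 19.1% to 37.0%), against 21.3% of the list, 15.4% of the flank peaks and 27.2% of those in other long genes. The interval for each share in Camta1 includes the share in the other long genes.

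The 10 highest folds were found from 16.2 to 799 kb after the start site. After the peak of 44.4 (chr4:151088542-151089184, 643 bp, pileup 326 reads) came chr4:151485641-151486276 with 42.2, chr4:151736895-151737453 with 41.9 and chr4:151142424-151143022 with 40.7. The last peak of the gene followed with 39.6, then chr4:151248999-151249695 with 38.7, chr4:151376132-151376763 with 38.1 and the first peak of the gene with 36.1. A fold of 34.3 and a pileup of 252 reads were shared by chr4:151074885-151075397 and chr4:151136029-151136567. At the lowest background 1 read adds 0.136 to the fold, so equal folds are equal pileups. Of these 10 peaks, 5 lay in the last 100 kb before the 3′ end, which held 16 of the 92. This 100 kb limit was not a planned one, and over all 92 peaks fold had no clear trend along the gene.

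Width and fold went together in Camta1. Widths ran from 67 to 2174 bp around a median of 381.5 bp (95% interval 287 to 446; quartiles 199 and 530 bp). It was 399 bp in the flanks (337 to 436), 405 bp in the other long genes (391 to 419) and 415 bp in the whole list. Spearman's rho of width with fold was 0.87 over the 92 peaks, 0.84 in the flanks, 0.36 in the other long genes and 0.55 in the whole list, as a description. Narrow peaks were frequent: 23 of the 92 were under 200 bp (25%, Wilson interval 17.3% to 34.7%), against 13.6% of the whole list, 12.2% in the flanks (7.94% to 18.2%) and 15.1% in other long genes (13.7% to 16.6%). Among the 39 long genes with at least 20 peaks, 3 had a higher share. Peaks under 100 bp numbered 7, each with a fold below 7. At the other extreme, 2 peaks reached 1 kb, 2.17% against 3.93% of the whole list.

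The 5 widest peaks differed in kind. The widest, chr4:151143619-151145792, was 2174 bp wide with a fold of only 9.69, a pileup of 358 reads and a background of 36.0 reads, the highest pileup and the highest background in the gene. Its edge lay 596 bp from that of the peak with a fold of 40.7. The next, chr4:151493654-151494811 (1158 bp), had a fold of 32.6 over the lowest background. Then came chr4:151707354-151708277 (924 bp, fold 19.7), chr4:151487391-151488205 (815 bp, fold 16.3) and chr4:151251127-151251929 (803 bp, fold 30.7).

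**Figure D5:**
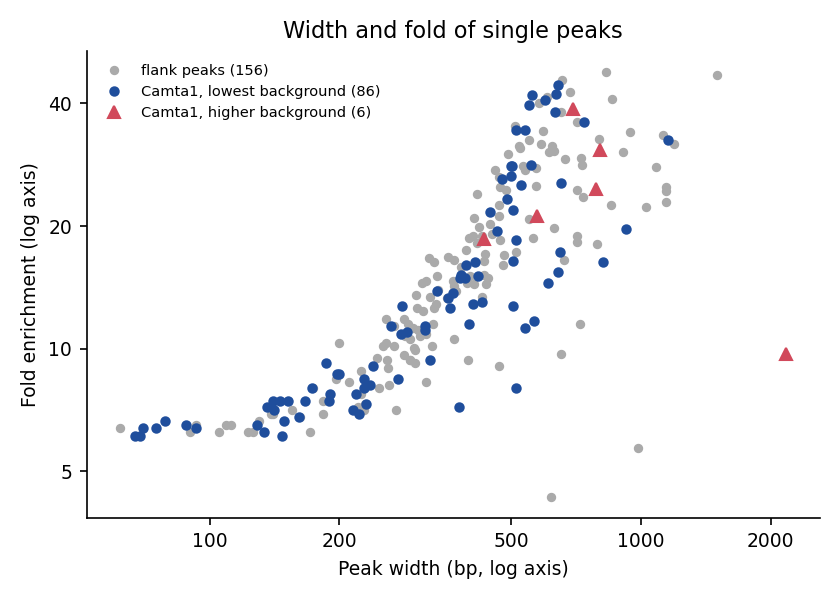
Each point is a peak, with its width (bp, log axis, horizontal) and fold enrichment (log axis, vertical), for Camta1 peaks at the lowest background (86) and above it (6) and for the 156 flank peaks. Fold rises with width, and the widest Camta1 peak, 2174 bp at a fold of 9.69, lies apart from the rest.

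The background under a peak was worked back from the deposited fold and −log10 p, and was at its floor in most of the gene. In the whole list 75.0% of peaks had the lowest background, 6.37 reads, which a caller of the MACS family takes where no local signal of its comparison set exceeds the genome average. In Camta1 it was 86 of 92 peaks, 93.5% (Wilson interval 86.5% to 97.0%), in the flanks 90.4% (84.7% to 94.1%) and in the other long genes 66.8% (64.9% to 68.7%). Of the 39 long genes with at least 20 peaks, 3 had a higher share than Camta1. The 6 other peaks of the gene formed 4 places. They were the widest peak (36.0 reads), the peak chr4:151085726-151086510 in the 3′ cluster (13.4 reads), adjoining peaks at chr4:151401804-151402378 and chr4:151402583-151403014 (6.73 and 14.8 reads), and the outer peaks of the cluster at chr4:151248999-151251929 (6.93 and 6.69 reads). Only 3 of the 6 were thus more than 1 read above the floor. Peaks above the floor alone gave Camta1 0.748 per 100 kb and place 54 of 146.

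The peaks covered 37278 bp of Camta1, 4.65% of its length, against 7.03% of the flanks, 1.04% of the other long genes and 1.97% of all covered sequence. Genes nested in or overlapping Camta1 (10 lncRNA entries and Gm13090) took up 20.6% of its body and held 24 of its peaks (26.1%). The longest of them, the lncRNA Gm38442 with 84.7 kb, held 13. Gm46899 had 4, Gm52711 had 2, and Gm13090, Gm30422, Gm45960, Gm52710 and Gm42357 had 1 each, while Gm30344, Gm52712 and 9230110K08Rik had none. The strand of the captured DNA is not recorded in the list, so a peak in such a place belongs to both genes.

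Camta1 was finally set beside other genes of transcription controlled by calcium and calmodulin. Of 34 such genes, 27 lay on covered sequence, and without Camta1 22 of 26 had a peak in the body, where 64.7% of all protein-coding genes did. Their median density was 5.99 peaks per 100 kb, against 4.15 for all protein-coding genes. These genes differ in length, which sets the chance of holding a peak. Camta2, the only other family member, spans 18.7 kb on chromosome 11 and had 1 peak, with a fold of 28.5. After Camta1 the most peaks were found in Nfatc2 and Camk1d (22 each), Camkk2 (20) and Nfatc1 (14). Nfatc2 and Nfatc1 encode transcription factors activated by the phosphatase calcineurin, and Camk1d and Camkk2 encode calmodulin-dependent kinases. Relative to length Nfatc2 had 17.6, Camk1d 5.22, Camkk2 32.7 and Nfatc1 13.1 peaks per 100 kb. In all, 10 of the 26 other list genes on covered sequence were denser than Camta1, where 28.1% of all protein-coding genes were. Ppp3cb and Ppp3r1, which encode calcineurin subunits, had no peak in 47.2 and 41.1 kb. Hdac9, a class II histone deacetylase gene of 870 kb named here after its value was seen, is the only one of comparable length and had 12 peaks, 1.38 per 100 kb.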

How the data were processed

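MBD2-enriched DNA, sonicated to fragments of about 300 bp, was sequenced from 3 control and 3 cKO cultures. Per the submitters' processing notes, fastp, Bowtie2 and MACS2 and the builds mm10 and GRCm38 were used, without versions. The authors called peaks on 3 datasets joined with Samtools, per the names in the deposited list, which give no group. The deposited list gives per peak a fold enrichment (a ratio over the caller's background), a −log10 p, a −log10 q, a score (10 times the −log10 q without its decimals), the ends and the summit. These values are the caller's own and are used only to describe peaks within the list. An incomplete last line, on chromosome 6, was dropped. Chromosomes 1 to 5, 10 to 19 and part of 6 were analysed, and others were not analysed here.

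Peaks were placed by midpoint in gene positions from RefSeq GRCm38.p6; coordinates are 1-based. Pileup and background were solved from fold = (pileup + 1)/(background + 1) and the Poisson −log10 p for a whole-number pileup, matched within 1% of the spacing between neighbouring pileups (99.97% of peaks, all 92 of Camta1); the recovery was tested on simulated data. Genes entered if they lay beyond the first 3 Mb of a covered chromosome. Of the long genes, 3 that overlap a longer one were left out of pooled values. Intervals are 95% (exact Poisson, Wilson, order statistics for medians, exact binomial for ratios of densities). SciPy 1.17.1 and pandas 2.3.3 were used. No test was run, since the list has no value per sample, and the planned count test of control against cKO was not computed. The members and lists were chosen with earlier results of these data known. The rule for named items was the 10 highest folds, 5 widest peaks, 5 highest backgrounds, outermost peaks, longest gap and clusters in Camta1; the 3 densest, 3 sparsest, 4 nearest in length and 3 nearest in density of the long genes; the flank genes; and, of the calcium list, the 5 with most peaks, the 3 longest without one and Camta2; 1 item under this rule is not reported. Alternatives were stricter −log10 q, other placements, merging within 500 bp, peaks by background, other length ranges, flanks and cluster limits.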

Additional observations from a re-analysis of the deposited data

How the results depend on the processing

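No paired analysis was possible because peaks carry no values per culture; no replicate block and no fit without a replicate was computed. A −log10 q of at least 50 left 56 peaks in Camta1, with a median gap of 9110 bp, a median width of 505 bp and a median fold of 17.8; at least 100 left 34 peaks, 12800 bp, 553.5 bp and 25.8, a density ratio to the flanks of 0.558 and 82.4% at the lowest background. These changes follow from removing weak peaks. Camta1 kept place 4 of 146 at both. Place 1, with 100% of the other long genes below it, was reached with peaks within 500 bp merged and with peaks at the lowest background only (as reported, 97.9% were below it). Peaks above the lowest background alone numbered 6, with 63.4% of genes below, a density ratio of 0.499 (95% interval 0.158 to 1.36), a median gap of 58587 bp, a width of 741 bp and a fold of 22.9. Clusters numbered 2 at 2 kb, 9 at 5 kb and 2 with at least 4 peaks. The density ratio stayed below 1 in all 9 alternatives tried for it (0.499 to 0.782), but its interval reached 1 with merged peaks (1.03) and at the lowest background (1.001). The depth of each culture is unknown.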
